A study of Mus musculus with 8 samples.

Results

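A set of 10 genes of the desmosome and the intercalated disc, the specialised contact between the ends of neighbouring cardiomyocytes, was followed in mouse hearts. In these hearts the gene of the methyltransferase Mettl3 was targeted for deletion in cardiomyocytes. The genes were taken by symbol from the table of 23045 genes. They were Dsp, Pkp2, Jup, Dsg2 and Dsc2 of the desmosome, Cdh2, Ctnna1, Ctnna3 and Vcl of the adherens junction and its link to actin, and Tmem43 of the nuclear envelope. All 10 were found and all 10 passed the filter on low values.

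The study sequenced hearts of 4 WT mice (Mettl3 lox/lox, no Cre) and of 4 Mettl3 KO mice (Mettl3 lox/lox:αMHC-MerCreMer pos), in whose cardiomyocytes Mettl3 was targeted for deletion. Mettl3 writes N6-methyladenosine (m6A) into RNA. The study used these libraries to examine polyA sites, which are not analysed here. Mice of both groups carried the floxed Mettl3 alleles and both received tamoxifen, injected on 7 consecutive days at 100 µg per g at an age of 10 to 16 weeks. The αMHC promoter drives the tamoxifen-dependent Cre in cardiomyocytes only, so the other cells of a Mettl3 KO heart would keep Mettl3. Mettl3 was not measured by cell type here. Cre was present in 1 group only, so effects of Cre and of the deletion cannot be told apart. Total RNA of heart tissue was sequenced as 1 library per heart, and values are normalised read counts rounded to whole numbers.

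Desmosomes hold the cells of tissues under mechanical load together. Their cadherins (desmogleins and desmocollins) reach across the gap, the armadillo proteins plakoglobin and plakophilin bind the cadherin tails, and desmoplakin ties the plaque to intermediate filaments. In the heart they mix with adherens junctions, where N-cadherin is linked through catenins and vinculin to actin, and inherited variants in most of these genes are known causes of arrhythmogenic cardiomyopathy.

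Summed values were alike, from 2839589 to 2881849 per WT heart and from 2840184 to 2916986 per Mettl3 KO heart, and read numbers recovered from the rounding lay between 2631904 and 3061209. Mettl3 itself had 105, 133, 118 and 107 normalised reads in WT against 74, 68, 69 and 78 in Mettl3 KO hearts, without overlap (log2 fold change -0.67, standard error 0.10, adjusted p = 0.000184 by limma). The Mettl3 KO mean was 62.4% of the WT mean, and which cells held the remaining Mettl3 RNA was not measured. Of the marker lists, 0 of 9 cardiomyocyte genes passed the test by limma or by voom on recovered reads, with 1 at an unadjusted p under 0.05 by limma (median log2 fold change 0.06), and their summed values were 14683 to 16071 in WT hearts against 14775 to 16654 in Mettl3 KO hearts. By limma, 7 of 8 fibroblast genes were higher in Mettl3 KO (median 0.39) and 3 of 8 endothelial genes were lower (median -0.16). Of the other lists, 1 of 8 smooth muscle and pericyte genes and 1 of 8 macrophage genes were lower, and 1 of 7 mesothelial and epithelial genes was higher. The atrial gene Bmp10 was listed at 0 in all 4 WT hearts and in Mettl3 KO heart 1, and at 195, 158 and 358 in Mettl3 KO hearts 2, 3 and 4. Myl7 and Sln, the other atrial genes, were also highest in those 3 hearts. All 3 atrial genes passed the test by limma, and 2 by voom, although the values of the groups overlapped. Their summed values were 0 to 38 in WT hearts and 33 to 541 in Mettl3 KO hearts.

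Of the 10 genes, 1 fell, 2 rose and 7 did not pass the test. Ctnna3, which codes for αT-catenin, fell to 74.0% of its WT level. Dsp, which codes for desmoplakin, rose to 111% and Tmem43 to 126%. Across the 20313 genes tested, 4.72% were called higher and 3.19% lower, 7.91% in either direction, at a Benjamini-Hochberg adjusted p under 0.05 by limma, against 2, 1 and 3 of the 10 genes. All 10 genes had mean values above 10. When only the 13795 genes whose mean value reached 10 were tested, 1687 were called, a larger share than among all genes tested. The median log2 fold change of the 10 genes was 0.05, that of all genes tested -0.01. In whole tissue, fewer cells of a type and less RNA per cell cannot be told apart.

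**Figure D1:**
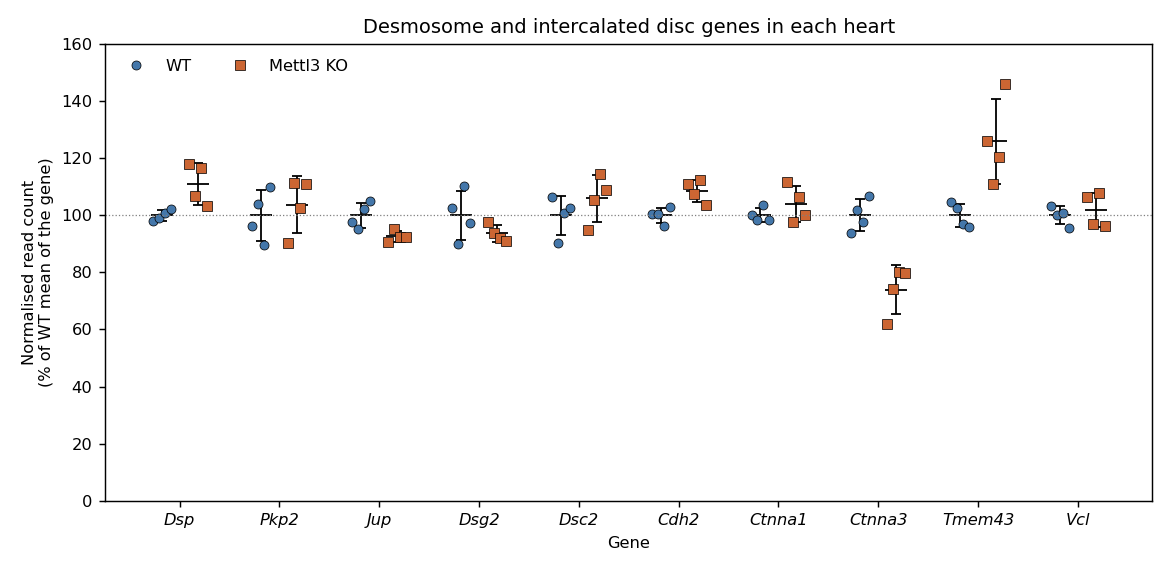
Normalised read count of each of the 10 genes in each heart, as a percentage of the WT mean of that gene (y axis, starting at 0), with WT hearts as circles, Mettl3 KO hearts as squares, and horizontal marks and bars for the mean ± SD of 4 hearts. Ctnna3 lies between 61.9% and 80.0% in Mettl3 KO hearts, Tmem43 between 111% and 146%, and Dsp between 103% and 118%, while Pkp2, Dsc2, Ctnna1 and Vcl overlap widely between the groups.

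Because GGACU is the best known core of m6A sites, the transcript sequence around that motif is shown for the 3 genes that passed the test. GGACT (T for U) was searched on the transcript's own strand only, in 1 coding transcript per gene of the GENCODE annotation of GRCm38, and 91.7% of 14384 coding transcripts held it at least 1 time (median 1.05 per kb, quartiles 0.644 and 1.55). Capitals mark the motif, each run is 30 bases 5′ to 3′, and each is the match nearest to the stop codon. All of them lie in the coding part, where the motif starts 1863 bases (Dsp, chromosome 13), 399 bases (Ctnna3, chromosome 10) and 201 bases (Tmem43, chromosome 6) before the last base of the stop codon.
Dsp: ggagagaatcaaGGACTtcctccagggttc
Ctnna3: accgtgcaaacaGGACTtgctggcttacct
Tmem43: ctacaccctagtGGACTggtttcctgtctt

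The 3 transcripts differed in how often they held the motif. The Dsp transcript held 5 matches, all in the coding part (0.521 per kb, percentile 18.8 of all transcripts). The Ctnna3 transcript held 3, of which 1 in the coding part and 1 in the 3′ UTR (0.815 per kb, percentile 34.9). The Tmem43 transcript held 6, with 4 in the coding part and 2 in the 3′ UTR (2.07 per kb, percentile 89.1). The 7 genes that did not pass lay between 0.949 per kb (Vcl) and 1.55 per kb (Dsc2), that is between those extremes. A match is a string of letters and no measured methylation site, and methylation was not measured in these libraries.

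Dsp codes for desmoplakin, the plaque protein that anchors desmin filaments to the desmosome (ENSMUSG00000054889, mm39 chr13:38335270-38382553, plus strand). WT hearts had 4321, 4358, 4447 and 4498 normalised reads, a mean of 4406 ± 81.0 (SD, n = 4). Mettl3 KO hearts had 5201, 4700, 5139 and 4544, a mean of 4896 ± 324. Each Mettl3 KO heart lay above each WT heart, although the lowest exceeded the highest WT heart by little and the spread was wider in Mettl3 KO. Values that do not overlap between the groups were found for 11.5% of all genes tested and for 4 of the 10 genes. On the log2 scale Dsp was higher by 0.15 (standard error 0.04, 95% confidence interval 0.07 to 0.23, adjusted p = 0.0150 by limma).

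The call of Dsp depended on the scaling and on single hearts. The same Mettl3 KO hearts that were high in Dsp, 1 and 3, also had the highest Myh6, the gene of α-myosin heavy chain, among the Mettl3 KO hearts, at 5613 and 5500 against 5161 and 4942. Divided by each heart's level of the 9 cardiomyocyte markers, Dsp was between 4309 and 4650 in WT hearts, and between 4703 and 4908 in Mettl3 KO. The groups still did not overlap, but the log2 fold change was 0.10 and the limma adjusted p 0.109. After quantile normalization the difference was 0.05 on the log2 scale, with an adjusted p of 0.270 by limma. With the atrial markers as a covariate it was larger, at 0.25 (adjusted p = 0.00269 by limma). That covariate largely follows the genotype, because only Mettl3 KO heart 1 lay within the WT range of these markers. Without WT heart 1, WT heart 2 or Mettl3 KO heart 3, the adjusted p of Dsp was 0.0613, 0.0574 and 0.0894.

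Neither armadillo gene of the plaque passed the test. Jup codes for plakoglobin (γ-catenin), the catenin shared by desmosome and adherens junction (ENSMUSG00000001552, chr11:100259784-100288589, minus strand). It had 518, 506, 543 and 558 normalised reads in WT (531 ± 23.6) against 482, 506, 490 and 490 in Mettl3 KO hearts (492 ± 10.1). WT heart 2 and Mettl3 KO heart 2 shared the value 506, the lowest in WT and the highest in Mettl3 KO. The log2 fold change of Jup was -0.11 (standard error 0.05, 95% confidence interval -0.21 to -0.01), with a limma p of 0.0381 that was 0.208 after adjustment.

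Pkp2 codes for plakophilin-2, the armadillo protein that recruits desmoplakin to the cardiac desmosome (ENSMUSG00000041957, chr16:16031182-16090576, plus strand). WT hearts had 479, 518, 447 and 548 normalised reads and Mettl3 KO hearts 449, 555, 510 and 553. The ranges were almost the same, and the log2 fold change was 0.05 (standard error 0.07, adjusted p = 0.750 by limma), with a 95% confidence interval from -0.09 to 0.19.

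As a description of the balance within the plaque, the number of Dsp reads per Jup read was 8.06 to 8.61 in WT (8.30 ± 0.24, n = 4) and 9.27 to 10.8 in Mettl3 KO hearts (9.96 ± 0.79), so the groups did not overlap. Plakoglobin is a close relative of β-catenin, whose gene Ctnnb1 did not pass the test (log2 fold change 0.00, standard error 0.04, adjusted p = 1 by limma). Jup reads per Ctnnb1 read were 0.622 ± 0.039 in WT and 0.576 ± 0.018 in Mettl3 KO hearts, with overlap. Of 10 canonical Wnt target genes, used as a readout of β-catenin signalling, 0 passed the test by limma or by voom. An unadjusted p under 0.05 by limma was found for 1 of them (median -0.03). Several had only a few normalised reads (lowest WT mean 1.25), where a difference could have been missed, and signalling itself was not measured.

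Neither desmosomal cadherin passed the test. Dsg2, desmoglein-2, is the main desmoglein of the heart (ENSMUSG00000044393, chr18:20691131-20737578, plus strand). It had 847, 743, 909 and 803 normalised reads in WT against 807, 774, 759 and 752 in Mettl3 KO hearts, all of the latter within the WT range. Its log2 fold change was -0.09 (standard error 0.05, 95% confidence interval -0.20 to 0.02, adjusted p = 0.359 by limma).

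Dsc2, desmocollin-2, is its partner cadherin (ENSMUSG00000024331, chr18:20163690-20192611, minus strand). It had 506, 430, 479 and 488 normalised reads in WT against 451, 502, 544 and 518 in Mettl3 KO hearts, with overlap. Its log2 fold change was 0.08 (standard error 0.06, 95% confidence interval -0.05 to 0.21, adjusted p = 0.518 by limma). Dsc2 reads per Dsg2 read were 0.578 ± 0.036 in WT and 0.653 ± 0.069 in Mettl3 KO hearts, again with overlap.

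Of the remaining desmosome genes, 7 of the 13 listed were in the table and 0 of those 7 passed the test by limma or by voom, with 0 at an unadjusted p under 0.05 by limma (median log2 fold change 0.03, and -0.01 after scaling to the cardiomyocyte markers). Some of the 7 had only a few normalised reads (lowest WT mean 1), where a difference could have been missed. Des, which codes for desmin, the intermediate filament that desmoplakin holds, had 1231, 1213, 1247 and 1267 normalised reads in WT against 1369, 1179, 1317 and 1161 in Mettl3 KO hearts (log2 fold change 0.02, standard error 0.05, adjusted p = 0.911 by limma). Mettl3 KO hearts 1 and 3 were the highest in Des as in Dsp. The desmogleins and desmocollins of stratified epithelia Dsc1, Dsc3, Dsg1b, Dsg3 and Dsg4 and the plakophilin Pkp1 were not analysed here.

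**Figure D2:**
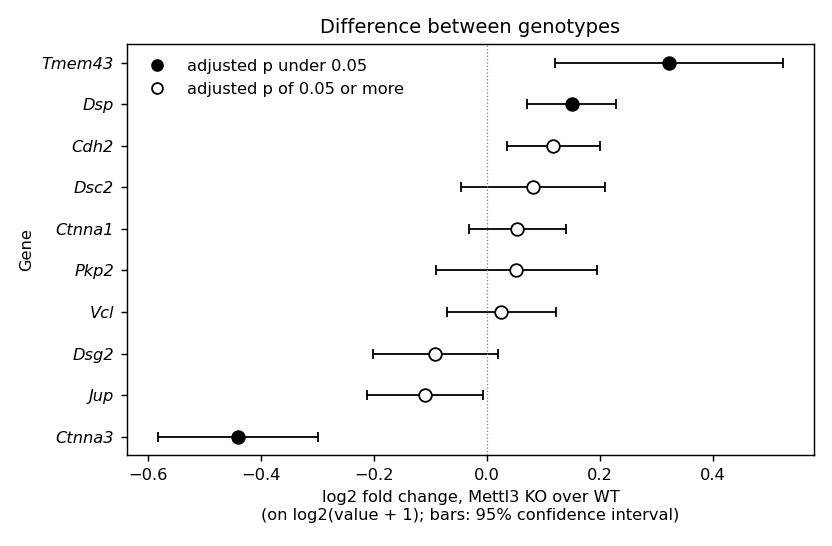
log2 fold change of each of the 10 genes (x axis, Mettl3 KO over WT on log2(value + 1)), ordered from lowest to highest, with 95% confidence intervals as bars and filled points for a limma adjusted p under 0.05. Ctnna3 at -0.44 stands below the rest, Dsp and Tmem43 are the 2 filled points to the right of 0, and the intervals of Pkp2, Dsg2, Dsc2, Ctnna1 and Vcl include 0.

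The adherens junction held the largest difference of the 10 genes. Ctnna3 codes for αT-catenin, the α-catenin found mainly in heart and testis, which joins the cadherin complex to actin and binds plakophilin-2 (ENSMUSG00000060843, chr10:63265877-64839446, plus strand). WT hearts had 553, 601, 575 and 630 normalised reads (589.8 ± 33.2, n = 4) and Mettl3 KO hearts 365, 438, 472 and 470 (436 ± 50.0). The highest Mettl3 KO heart lay below the lowest WT heart, and Mettl3 KO heart 1, the only one of that group without Bmp10 reads, was the lowest. The log2 fold change was -0.44 (standard error 0.07, 95% confidence interval -0.58 to -0.30, adjusted p = 0.000206 by limma). Without Mettl3 KO heart 1 it was -0.36 (adjusted p = 0.000203 by limma), with the atrial markers as a covariate -0.67 (4.93e-05), and scaled to the cardiomyocyte markers -0.49 (0.000412). The estimate with the atrial covariate is uncertain, because only Mettl3 KO heart 1 lay within the WT range of those markers. In limma without a mean-variance trend the fold change was the same, but the adjusted p was 0.0829.

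Ctnna1 codes for αE-catenin, the α-catenin of most tissues, which shares the adherens junction with αT-catenin (ENSMUSG00000037815, chr18:35251912-35387832, plus strand). It had 1710, 1678, 1768 and 1678 normalised reads in WT against 1909, 1667, 1817 and 1709 in Mettl3 KO hearts, with overlap and a log2 fold change of 0.05 (standard error 0.04, 95% confidence interval -0.03 to 0.14, adjusted p = 0.530 by limma). The balance of the 2 α-catenin genes is described by their ratio in each heart.

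Ctnna3 reads per Ctnna1 read were 0.323, 0.358, 0.325 and 0.375 in WT (0.346 ± 0.026) against 0.191, 0.263, 0.260 and 0.275 in Mettl3 KO hearts (0.247 ± 0.038). Per kb of exon the ratio was 0.307 ± 0.023 in WT and 0.220 ± 0.034 in Mettl3 KO. The groups did not overlap, with Mettl3 KO heart 1 again the lowest. This ratio is given as a description and was not tested. The α-catenin-like gene Ctnnal1 was lower in Mettl3 KO (log2 fold change -0.46, standard error 0.09, adjusted p = 0.00127 by limma).

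Ctnna3 spans 1573570 bases and ranked 6 by width among the 10948 protein-coding genes whose mean value reached 20. Of the 24 such genes that span 1 Mb or more, 6 were called higher and 2 lower, and their median log2 fold change was 0.04 against 0.00 for the rest. Ctnna3 is itself among those called lower, and the share called among all 10948 genes was not counted. Lrrtm3, which lies inside Ctnna3 on the opposite strand, had means of 7.25 and 3.5 normalised reads in WT and Mettl3 KO and did not pass the test (adjusted p = 0.376 by limma). Reads had been counted by strand, and no other gene on the same strand overlapped Ctnna3 or any other of the 10 genes.

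Cdh2, N-cadherin, is the classical cadherin of the cardiomyocyte (ENSMUSG00000024304, chr18:16721934-16942303, minus strand). It had 1237, 1236, 1187 and 1266 normalised reads in WT (1231.5 ± 32.8) against 1365, 1322, 1383 and 1275 in Mettl3 KO hearts (1336 ± 48.2). The groups did not overlap, though Mettl3 KO heart 4 was close to WT heart 4. The log2 fold change was 0.12 (standard error 0.04, 95% confidence interval 0.04 to 0.20), with a limma p of 0.00716 and an adjusted p of 0.0735. Its adjusted p was 0.0465 without Mettl3 KO heart 4, 0.0453 by voom on recovered reads and 0.456 after scaling to the cardiomyocyte markers, where the log2 fold change was 0.07.

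Vcl codes for vinculin, which binds α-catenin under tension and tethers actin (ENSMUSG00000021823, chr14:20979466-21083744, plus strand). It had 972, 941, 949 and 900 normalised reads in WT against 1001, 913, 1014 and 905 in Mettl3 KO hearts. The groups overlapped, and the log2 fold change was 0.03 (standard error 0.05, 95% confidence interval -0.07 to 0.12, adjusted p = 0.832 by limma). Of 16 vinculin and focal adhesion partners, which include talin, paxillin and integrin genes, 0 passed the test by limma or by voom, with 2 at an unadjusted p under 0.05 by limma (median -0.02, from -0.15 to 0.15).

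Other genes of the adherens junction moved in both directions. Of the 10 tested, 3 were called higher and 2 lower, with a median of 0.03 that was -0.02 after scaling to the cardiomyocyte markers. Cdh11, a cadherin of mesenchymal cells, rose (log2 fold change 0.67, standard error 0.10, adjusted p = 0.000182 by limma), with 84 to 116 normalised reads in WT and 148 to 177 in Mettl3 KO hearts. Nectin2, a nectin adhesion molecule, rose by 0.39 (0.00501), and Ctnnbip1, an inhibitor of β-catenin, fell by 0.38 (0.00895). Fibroblast markers were higher in the same hearts, with summed values of 3493 to 3883 in WT and 4398 to 5060 in Mettl3 KO, and their part in these differences was not tested.

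**Figure D3:**
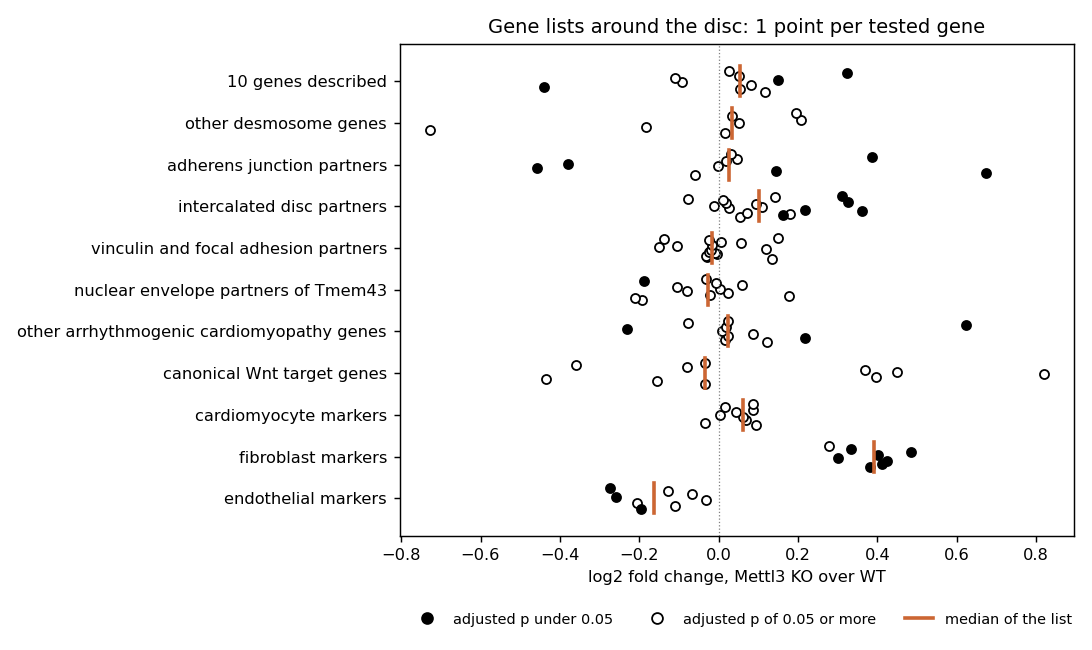
log2 fold change (x axis, Mettl3 KO over WT) of every tested gene of the 10 genes described and of 10 companion lists (rows), with filled points for a limma adjusted p under 0.05 and a bar at the median of the list. Intercalated disc partners have 5 filled points, all to the right of 0, the focal adhesion, Wnt target and cardiomyocyte lists have 0, and the fibroblast list lies wholly to the right with a median of 0.39.

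The intercalated disc also holds gap junctions, sodium channels and proteins that bind the ends of the myofibrils. Of 16 intercalated disc partners, 5 were called higher and 0 lower (median log2 fold change 0.10, and 0.05 after scaling to the cardiomyocyte markers). Xirp2, an actin-binding protein of the disc, rose from 4623, 4980, 4855 and 4981 to 6426, 5785, 6389 and 5548 normalised reads (log2 fold change 0.31, standard error 0.04, adjusted p = 2.80e-05 by limma). Ehd4, an endocytic trafficking protein, rose by 0.36 (5.97e-06), Sorbs2, an adaptor of the disc, by 0.33 (9.51e-05), and Flnc, filamin C, by 0.22 (0.00235). Within the Mettl3 KO group, Xirp2, Flnc and Ehd4 were highest in hearts 1 and 3, as Dsp was, whereas Sorbs2 and Ank3, the remaining partners called, were lowest in heart 1, the only Mettl3 KO heart without Bmp10 reads. Fibroblast markers (7 of 8 called higher, median 0.39) moved with the genotype in these hearts too. Atrial markers were above the WT range in every Mettl3 KO heart except heart 1. The part of both marker lists in the differences of the disc partners was not tested.

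Among the channels and scaffolds of the disc, Ank3, which codes for ankyrin-G, was the fifth partner called higher, without overlap between the groups (log2 fold change 0.16, standard error 0.04, adjusted p = 0.0169 by limma), and Gja1 and Tjp1 did not pass the test. Gja1, which codes for connexin 43 of the gap junction, had 1622, 1553, 1609 and 1612 normalised reads in WT against 1796, 1604, 1620 and 1501 in Mettl3 KO hearts (log2 fold change 0.03, standard error 0.04, adjusted p = 0.828 by limma). Tjp1, which codes for the scaffold ZO-1, had a log2 fold change of -0.08 (standard error 0.04, adjusted p = 0.343 by limma).

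Tmem43, also called LUMA, codes for a membrane protein of the inner nuclear envelope that binds lamins and emerin (ENSMUSG00000030095, chr6:91450685-91465445, plus strand). It had 98, 96, 91 and 90 normalised reads in WT (93.8 ± 3.86, n = 4) against 118, 104, 113 and 137 in Mettl3 KO hearts (118 ± 13.9). The groups did not overlap, and Mettl3 KO heart 4 was the highest. The log2 fold change was 0.32 (standard error 0.10, 95% confidence interval 0.12 to 0.52, adjusted p = 0.0429 by limma). This is the call closest to the threshold, and the lowest read numbers of the 10 genes stand behind it.

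Leaving out any single WT heart took Tmem43 over the threshold, at adjusted p values of 0.0652 to 0.104, and so did leaving out Mettl3 KO heart 1, 3 or 4 (0.0652 to 0.170). The atrial markers largely follow the genotype. With them as a covariate, the adjusted p of Tmem43 was 0.424, the highest of the 20 alternative settings, and by voom on recovered reads 0.0676. Its log2 fold change stayed between 0.25 and 0.38 in all 20 alternative settings, and it passed the test in 7 of them. Fibroblast markers were higher in the same hearts, and their part in the difference of Tmem43 was not tested. Of 12 other genes of the nuclear envelope, 0 were called higher and 1 lower (median -0.03). That gene was Syne2, nesprin-2, with a log2 fold change of -0.19 (standard error 0.04, adjusted p = 0.00585 by limma).

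Other genes linked to arrhythmogenic cardiomyopathy but outside the junctions were compared for context. Of the 11 tested, 2 were called higher and 1 lower (median 0.02, and -0.02 after scaling to the cardiomyocyte markers). Tgfb3, a growth factor, rose from 154, 140, 178 and 133 to 267, 207, 223 and 235 normalised reads (log2 fold change 0.62, standard error 0.09, adjusted p = 0.000113 by limma). Fibroblast markers were higher in the same hearts (7 of 8 called, median 0.39), and their part in the difference of Tgfb3 was not tested. Ryr2, the calcium release channel of the sarcoplasmic reticulum, fell by 0.23 (adjusted p = 0.000137 by limma), and Flnc is named above among the disc partners.

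**Figure D4:**
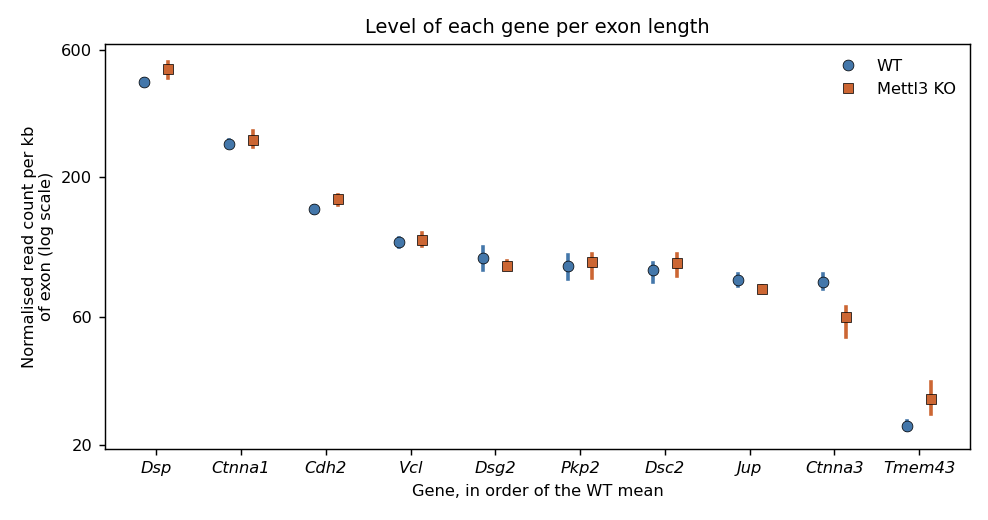
Normalised read count per kb of exon (y axis, log scale) of the 10 genes in order of the WT mean, with points for the mean of 4 hearts and lines from the lowest to the highest heart. Dsp is highest at 456 in WT and 507 in Mettl3 KO, Tmem43 lowest at 23.6 and 29.7, and Ctnna3 drops clear of its WT range, from 81.6 to 60.4.

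Per kb of exon, with all exons of the annotation joined, the order in WT hearts was Dsp (456 ± 8.38 normalised reads per kb), Ctnna1 (266 ± 6.61), Cdh2 (153 ± 4.06), Vcl (115 ± 3.67), Dsg2 (99.8 ± 8.48), Pkp2 (92.9 ± 8.25), Dsc2 (90.2 ± 6.16), Jup (82.5 ± 3.66), Ctnna3 (81.6 ± 4.60) and Tmem43 (23.6 ± 0.972). The ranges of Dsp, Ctnna1, Cdh2 and Tmem43 over the WT hearts were each separate from those of their neighbours. From Vcl down to Ctnna3 the range of each gene overlapped with that of the next. For Vcl and Dsg2 the overlap was slight, with the lowest Vcl at 109.88 and the highest Dsg2 at 109.94. Part of this order changed with the length used. Per kb of 1 coding transcript, Ctnna1 (458 ± 11.4) overlapped with Dsp (459 ± 8.44), and Pkp2, Jup and Ctnna3 (171 ± 15.1, 166 ± 7.35 and 160.2 ± 9.03) ranked above Dsg2 (143 ± 12.2) and Dsc2 (106 ± 7.21). Cdh2, Vcl and Tmem43 kept ranks 3, 4 and 10.

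In Mettl3 KO hearts the order per kb of exon was the same apart from Dsg2, Pkp2 and Dsc2, which overlapped with each other in both groups. Ctnna3 was at 60.4 ± 6.92 per kb and Jup at 76.4 ± 1.56, and these neighbours, which overlapped in WT, did not overlap in Mettl3 KO: Jup ranged from 74.9 to 78.6 and Ctnna3 from 50.5 to 65.3. Lengths came from an annotation of GRCm38, and which transcripts the hearts of each genotype use was not tested here.

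**Figure D5:**
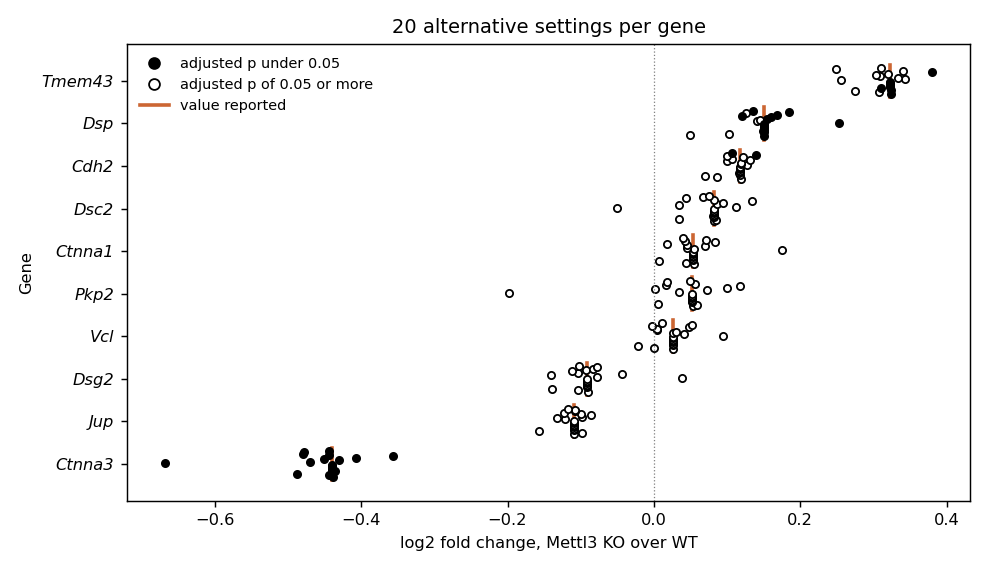
log2 fold change (x axis, Mettl3 KO over WT) of each of the 10 genes in each of 20 alternative settings of the processing and the test, filled where the limma adjusted p was under 0.05, with a bar at the value reported. Ctnna3 stays between -0.67 and -0.36 and is filled in 19 settings, Dsp in 14, Tmem43 in 7 and Cdh2 in 2, while the other 6 genes are filled in 0.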

How the data were processed

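The authors trimmed single-end reads with Trimmomatic 0.39 (per the methods of the study), aligned them to mm39 with STAR 2.7.11a, removed duplicates with Picard 3.1.1 together with multi-mapping, ribosomal and mitochondrial reads, and used featureCounts 2.0.4 for strand-specific counts over exons, without reads that touched more than 1 gene. The values deposited by the authors are a score, DESeq2-normalised counts rounded to whole numbers and not raw counts. Removing multi-mapping reads lowers genes with near-identical copies.

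The 20313 genes whose mean value reached 1 were tested, and 2732 others were not. limma 3.58.1 (R 4.3.3) was run on log2(value + 1) with genotype as its single term and the prior variance following a trend with mean level. Tests were two-sided and p was adjusted by Benjamini-Hochberg over all genes tested. The script was tested on simulated data. Voom was run on recovered reads as an added alternative. Fold changes on this scale understate those of low genes. Reads per library were recovered from gaps in the rounded values (up to 11.5% of values stand for an unclear read number), and 3 reads correspond to 0.980 to 1.14 CPM. Reads are not independent molecules, and hearts were labelled as separate samples without stating litters or batches.

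The 10 genes, the companion lists and the alternatives were chosen with earlier results of these data known. Named were all 10 genes, Mettl3, Ctnnb1, Des, Gja1 and Tjp1. Of each companion list other than the marker lists, up to 4 genes past the threshold with the largest fold change were named too. Other names (the atrial genes, Myh6, Lrrtm3, Ank3, desmosome genes not analysed here) were chosen after values were seen. Exon lengths and transcript sequences came from GENCODE for GRCm38 (96.2% of tested genes matched), used without its coordinates. Levels per kb of transcript were added after seeing the data.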

Additional observations from a re-analysis of the deposited data

How the results depend on the processing

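Of the 10 genes, 3 were called. Quantile normalization and scaling to the cardiomyocyte markers each left 1 (Ctnna3), and limma without a mean-variance trend left 0 (2 at an unadjusted p under 0.05, against 5 with the trend), where Ctnna3 had an adjusted p of 0.0829. Leaving out each heart in turn gave 1 to 3 called genes, with 1 (Ctnna3) without WT heart 1, WT heart 2 or Mettl3 KO heart 3. The atrial markers as a covariate turned Pkp2 to -0.1979, Dsg2 to 0.0383 and Dsc2 to -0.0508, none of them called, and left 2 called genes (without Tmem43). Only Mettl3 KO heart 1 lay within the WT range of the atrial markers, so this covariate and the genotype are hard to separate. Vcl, also not called, was -0.0218 under cardiomyocyte scaling and -0.0022 to 0.0524 over the left-out hearts.

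Over all genes, 1607 calls became 321 without the trend, 903 with the atrial covariate (590 shared) and 1019 to 1596 over the left-out hearts, lowest without Mettl3 KO heart 3. Cardiomyocyte scaling turned the split of 958 higher and 649 lower into 526 and 645 and moved the median of all genes from -0.01 to -0.05. Voom on recovered reads, added after seeing the data, called 1549, and 3 of the 10 genes (Dsp, Ctnna3 and Cdh2, not Tmem43). The causes of these changes were not tested. Hearts share replicate numbers, but residuals of same-numbered hearts correlated at only -0.0042 to 0.0222. The main fit did not pair hearts by number, and whether any shared a litter or batch is not stated. With the replicate block, 2 of the 10 genes (without Tmem43) and 1346 genes were called (1304 shared), and not every heart correlated best with the heart of its own number.

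With 4 hearts per group, the 95% confidence intervals of the 7 genes that were not called reach from -0.21 to 0.21 on the log2 scale, and low genes are limited by counting.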
